A study of Mus musculus with 6 samples.

Results

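Nos2 and 7 genes of the epithelial oxidant system (Duox2, Duoxa2, Nox1, Noxo1, Noxa1, Cyba and Sod2) were followed in mouse intestinal stem cells given INT-777 or its solvent. The 8 genes are a hand-made list, chosen by function with the INT-777 against DMSO results of these libraries known, out of 54838 gene IDs in the files. Their difference between the treatments is therefore described here without a p-value, and p-values are given for the days of sorting and for other genes. All 8 symbols matched a single Ensembl ID.

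INT-777, made by modifying a natural bile acid, is an agonist of TGR5, a cell-surface bile acid receptor, and the experiment asked which genes respond when this receptor is stimulated. There were 3 libraries of cells treated with INT-777 at 30 µM and 3 of cells treated with DMSO, 1 of each on each of 3 days, and the replicate number is the day. Every library came from GFP-high cells of Lgr5-eGFP-IRES-CreERT2 mice, in which the reporter and an inducible Cre are expressed from the Lgr5 locus, with the intestines of 4 mice pooled per day; mouse age was not given. Both groups were cultured in Matrigel in crypt medium with the Notch ligand peptide JAG-1 (1 µM) and the GSK3 inhibitor CHIR99021 (3 µM), and treatment began 4 h after embedding. Its length is 12 h in the sample labels and 16 h in the design text. Between 45682340 and 47905087 read pairs per library were assigned to genes.

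Nitric oxide synthases make nitric oxide from arginine, and Nos2 encodes the inducible form, whose output is set mainly by how much of the gene is transcribed. NADPH oxidases move electrons across a membrane onto oxygen. Nox1 is the catalytic subunit of the epithelial superoxide-producing enzyme, which works with the membrane partner encoded by Cyba (p22phox), the organiser Noxo1 and the activator Noxa1. Duox2 releases hydrogen peroxide at the apical surface and needs the maturation factor Duoxa2 to leave the endoplasmic reticulum. Sod2 is the manganese superoxide dismutase of the mitochondrial matrix. In gut epithelium this group is known for antimicrobial defence and is induced by inflammatory signals.

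Duox2 and Duoxa2 lie head to head on chromosome 2 (GRCm38), Duox2 at 122279247 to 122298449 on the minus strand and Duoxa2 at 122298900 to 122302885 on the plus strand, with 450 bases between the annotated genes. Promoter windows from RefSeq (GRCm38.p6), running from 250 bases before to 50 after the annotated start, were at hand for 7 of the 8 genes, all but Nos2. Shown are the windows of the head-to-head pair, of Nox1, which was the lowest of the 8 relative to DMSO after Nos2, and of Sod2, the single gene of the 8 that was higher. They are written 5′ to 3′ on the strand of the gene at chr2:122298178-122298477 (minus), chr2:122298650-122298949 (plus), chrX:134111805-134112104 (minus) and chr17:13007589-13007888 (plus). Gene positions here and below are those of GENCODE M21, whose outermost start can lie elsewhere: the RefSeq start falls 110102 bases inside the GENCODE gene for Nox1, 993 for Sod2 and 222 for Duox2, and the starts coincide for Duoxa2. Capitals mark matches to any of 5 motifs, searched on both strands.
Duox2: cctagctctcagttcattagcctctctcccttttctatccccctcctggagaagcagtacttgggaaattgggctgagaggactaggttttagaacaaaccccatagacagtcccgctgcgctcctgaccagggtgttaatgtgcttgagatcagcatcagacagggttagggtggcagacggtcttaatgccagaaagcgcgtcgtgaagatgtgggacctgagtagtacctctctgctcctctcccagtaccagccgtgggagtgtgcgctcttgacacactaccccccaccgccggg
Duoxa2: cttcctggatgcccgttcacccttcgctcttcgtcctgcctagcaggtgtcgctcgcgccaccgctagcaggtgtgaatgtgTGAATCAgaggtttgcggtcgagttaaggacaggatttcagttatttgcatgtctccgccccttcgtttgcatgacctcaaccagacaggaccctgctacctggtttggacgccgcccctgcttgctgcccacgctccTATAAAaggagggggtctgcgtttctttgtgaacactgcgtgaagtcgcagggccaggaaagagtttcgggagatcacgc
Nox1: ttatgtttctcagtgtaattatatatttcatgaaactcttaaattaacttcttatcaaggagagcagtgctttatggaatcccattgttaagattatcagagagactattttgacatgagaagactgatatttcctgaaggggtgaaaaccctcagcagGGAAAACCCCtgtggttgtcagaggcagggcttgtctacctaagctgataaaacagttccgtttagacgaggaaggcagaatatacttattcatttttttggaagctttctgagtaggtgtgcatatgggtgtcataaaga
Sod2: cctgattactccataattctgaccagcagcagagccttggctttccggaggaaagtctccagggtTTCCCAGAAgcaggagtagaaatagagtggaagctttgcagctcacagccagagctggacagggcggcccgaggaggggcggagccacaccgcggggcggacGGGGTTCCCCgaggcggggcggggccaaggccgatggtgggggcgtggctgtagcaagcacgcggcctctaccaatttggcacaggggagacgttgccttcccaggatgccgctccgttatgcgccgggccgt

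The motifs were the kappa-B consensus of NF-kB, the AP-1 motif TGANTCA, the cyclic AMP response element TGACGTCA, the STAT motif TTCNNNGAA (GAS) and the TATA box TATAAA. The kappa-B consensus was found in the windows of Nox1 (GGAAAACCCC), Sod2 (GGGGTTCCCC) and Noxa1, that is in 3 of 7, against 8.46% of 32851 mouse promoter windows of the same length. The AP-1 motif TGAATCA and the TATA box were in the Duoxa2 window, against 7.81% and 13.6% of all windows. The GAS motif was in the Sod2 window (TTCCCAGAA), against 8.30% of all windows, and the cyclic AMP response element in none of the 7, against 1.79%. The Duox2 window held no match. A match is a string of letters and not a measured binding site.

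The cells carried epithelial and stem cell markers. The summed level of 7 epithelial markers was 10107 to 10501 CPM in INT-777 libraries and 8914.5 to 9340.3 CPM in DMSO libraries, and that of 6 Lgr5 stem cell markers 1477 to 1927 CPM and 1872 to 2297 CPM in INT-777 and DMSO libraries. Slc12a2 made up most of the stem cell sum, at 996.6 to 1619 CPM. Within each day Ascl2 was higher with INT-777, and the other stem cell markers were lower. Day 3 stood apart in markers of secretory cells, with goblet and enteroendocrine sums higher and the Paneth sum lower than on days 1 and 2. The sum of 8 goblet cell markers was 3001, 2901 and 12450.2 CPM in the INT-777 libraries of days 1, 2 and 3. In the DMSO libraries it was 5661, 5564.5 and 28229 CPM. The 6 enteroendocrine markers summed to 549.9 to 558 CPM on days 1 and 2 and 1967 CPM on day 3 with INT-777. With DMSO they summed to 581 to 593 CPM and 2549 CPM. The 6 Paneth markers summed to 2812, 2989 and 1690 CPM on days 1, 2 and 3 with INT-777. With DMSO they summed to 3249, 3083.5 and 2764.5 CPM. Of the Paneth markers, Mmp7 was higher on day 3 in each group and Ang4 with DMSO. In bulk RNA, fewer cells of a type and less RNA per cell cannot be told apart. Libraries of days 1 and 2 were far closer to each other than to day 3, with a chi-square per gene that averaged 3.25 between the INT-777 libraries of days 1 and 2 and 2.45 between the DMSO libraries, against 50.8 to 93.5 for pairs with day 3. They differed by more than counting noise and were kept as separate replicates.

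Nos2 was the gene with the most negative log2 fold change of all 15998 tested. It lies on chromosome 11 at 78920787 to 78960254 and shares no exon with another gene. Nos2 had 3.94, 3.25 and 4.19 CPM (TMM-scaled CPM, that is read pairs per 1e6 assigned) in the INT-777 libraries of days 1, 2 and 3, against 38.5, 42.95 and 32.2 CPM in the DMSO libraries. These levels rest on 186, 155 and 196 read pairs with INT-777 and on 1774, 1979 and 1494 with DMSO. All 3 INT-777 libraries lay far below the lowest DMSO library. The edgeR log2 fold change, INT-777 over DMSO, was −3.32 ± 0.14 (SE, n = 3 per group), which is 9.98-fold lower.

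**Figure D1:**
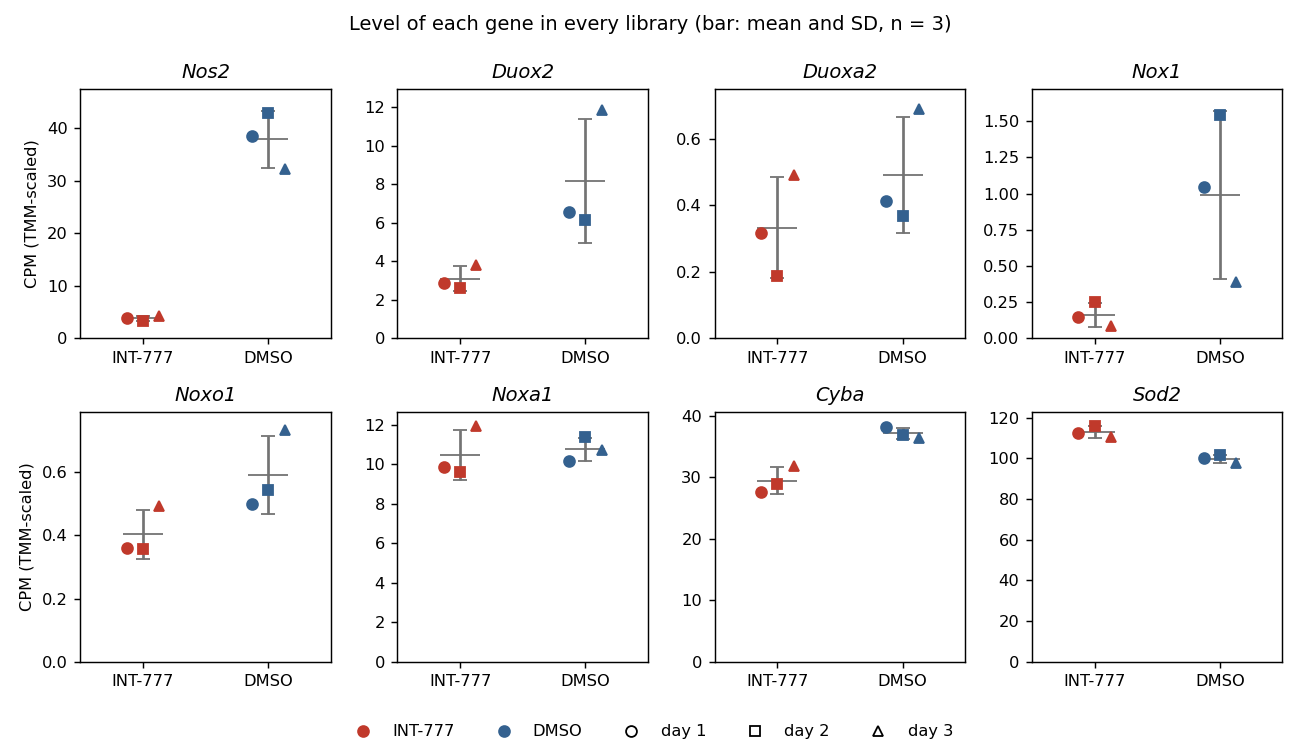
Level of the 8 genes in every library, in TMM-scaled CPM on linear axes that start at 0, with INT-777 left of DMSO; the symbol gives the day and the grey bar the mean and SD of 3 libraries. The INT-777 libraries of Nos2 sit between 3.25 and 4.19 CPM, below the 32.2 to 42.95 CPM of DMSO, whereas those of Noxa1 and Duoxa2 overlap with DMSO.

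Within a day, the INT-777 level of Nos2 was 0.102, 0.0757 and 0.130 of the DMSO level on days 1, 2 and 3. The exact 95% intervals, which cover counting error alone, were 0.0875 to 0.119, 0.0639 to 0.0892 and 0.112 to 0.151. The intervals of days 2 and 3 do not overlap, so the size of the difference varied between days by more than counting error. Day 2 held both the highest DMSO level and the lowest INT-777 level. The goblet marker sum was lower with INT-777 on each day as well. That sum was highest on day 3 in each group, where Nos2 was at its lowest among DMSO libraries and its highest among INT-777 libraries. The part of goblet cells in the Nos2 values was not tested.

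Macrophages are another well-known source of Nos2. Of the 13 leukocyte and macrophage markers, all but Cd74 ranged from 0 to a level like that of Nos2 with INT-777. Cd74 was above that level on days 1 and 2 in both groups. Adgre1, which encodes the macrophage antigen F4/80, had 0, 0 and 1 read pairs in the INT-777 libraries and, in the same order of days, 0, 0 and 1 with DMSO, and the neutrophil genes S100a8 and S100a9 had 0 in all 6. Ptprc, the pan-leukocyte gene CD45, had 3, 4 and 61 read pairs with INT-777 and 0, 0 and 70 with DMSO. Cd68, a lysosomal glycoprotein used as a macrophage marker, had 143, 172 and 170 read pairs with INT-777 and 135, 157 and 134 with DMSO, which is 3.03 to 3.64 CPM and 2.89 to 3.41 CPM, and its groups overlap. Over the whole list of 13 leukocyte markers the summed level was 10.8 to 17.4 CPM with INT-777 and 11.1 to 21.2 CPM with DMSO, most of it on days 1 and 2 from Cd74, the invariant chain of MHC class II, which gut epithelium also makes. Of the 13 markers 8, 5 and 2 had no read pair in the INT-777 libraries of days 1, 2 and 3, and 7, 7 and 2 had none in the DMSO libraries. The part of such cells in the Nos2 values was not tested.

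Duox2, the peroxide-producing dual oxidase, was also lower with INT-777. It had 2.86, 2.60 and 3.83 CPM in the INT-777 libraries of days 1, 2 and 3, against 6.54, 6.12 and 11.9 CPM in the DMSO libraries. The groups do not overlap, and day 3 was the highest in each. The log2 fold change was −1.40 ± 0.29 (SE, n = 3 per group) or 2.64-fold lower, and within days 1, 2 and 3 the INT-777 level was 0.438 (95% counting interval 0.355 to 0.538), 0.425 (0.341 to 0.527) and 0.322 (0.271 to 0.382) of the DMSO level. The goblet marker sum was likewise lower with INT-777 on each day and highest on day 3 in each group, and its part in the Duox2 values was not tested.

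Duoxa2, its maturation factor, was scarce, with 15, 9 and 23 read pairs in the INT-777 libraries against 19, 17 and 32 in the DMSO libraries. The groups overlap, although the INT-777 library was below the DMSO library of its day on each day. Its log2 fold change was −0.56 ± 0.42 (SE), and the 3 within-day counting intervals of the ratio all include 1, that of day 2 running from 0.201 to 1.21. No difference of Duoxa2 was detected at this depth, and whether it differs less than Duox2 was not tested. The 3′ part of Duoxa2 overlaps exons of its opposite-strand neighbour Duoxa1 over 682 of 1592 exon bases, where unstranded read pairs cannot be assigned to either gene.

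Nox1, the catalytic subunit of the superoxide-producing enzyme (chromosome X, 134086421 to 134221956, minus strand), is known chiefly from the large intestine and was low throughout. The markers of large intestine epithelium were low too, with a sum of 13.6 to 15.0 CPM in INT-777 libraries and 12.98 to 13.5 CPM in DMSO libraries over 5 genes and no Car1 read pair in any library, whereas 6 markers of small intestine epithelium summed to 502.7 to 654.5 CPM with INT-777 and 527.5 to 654 CPM with DMSO. Nox1 had 7, 12 and 4 read pairs in the INT-777 libraries of days 1, 2 and 3, against 48, 71 and 18 in the DMSO libraries. In CPM this was 0.148, 0.252 and 0.0856 with INT-777 and 1.04, 1.54 and 0.388 with DMSO, so that the groups do not overlap and day 3 was the lowest in each. The log2 fold change of −2.59 ± 0.59 (SE, n = 3 per group), 6.02-fold lower, was the fourth most negative of all genes tested. Nox1 passed the filter on low counts through the DMSO libraries, so its entry into the test depended on its being higher there. Within days 1, 2 and 3 the ratio was 0.142 (95% counting interval 0.0544 to 0.317), 0.163 (0.0807 to 0.304) and 0.221 (0.0543 to 0.670).

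The partners of Nox1 had log2 fold changes nearer to 0 than its own, and that contrast between genes was not tested. Cyba, the p22phox subunit that several NADPH oxidases share (chromosome 8, 122424776 to 122432930), had 27.6, 29.0 and 31.9 CPM in the INT-777 libraries of days 1, 2 and 3, against 38.2, 37.0 and 36.4 CPM in the DMSO libraries. The groups do not overlap, and the log2 fold change was −0.34 ± 0.07 (SE), 1.26-fold lower. The within-day ratio was 0.722 (95% counting interval 0.672 to 0.776) on day 1, 0.784 (0.730 to 0.842) on day 2 and 0.876 (0.816 to 0.939) on day 3, so the intervals of days 1 and 3 lie apart.

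Noxo1, the organiser (chromosome 17, 24696234 to 24700529), had 17, 17 and 23 read pairs with INT-777 against 23, 25 and 34 with DMSO. In CPM the groups do not overlap, at 0.357 to 0.492 with INT-777 and 0.499 to 0.733 with DMSO, but the nearest libraries, INT-777 of day 3 and DMSO of day 1, have 23 read pairs each and differ by their scaling alone. All 3 within-day counting intervals include 1. The log2 fold change was −0.55 ± 0.28 (SE). Its exons overlap those of the opposite-strand gene Tbl3 over 2122 of 3013 bases, so most of the gene could not contribute to the count. Noxa1, the activator (chromosome 2, 25085667 to 25095149), had 9.86, 9.63 and 11.9 CPM in the INT-777 libraries against 10.2, 11.4 and 10.7 CPM in the DMSO libraries. The DMSO values lie within the range of the INT-777 values, and the log2 fold change of −0.04 ± 0.11 (SE) lies within its error of 0. Its within-day ratio was 0.968, 0.847 and 1.11, below 1 on days 1 and 2 and above 1 on day 3, and its sign in the fit turned positive without INT-777 replicate 1 (0.003), without INT-777 replicate 2 (0.01) and without both day 2 libraries (0.044).

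Sod2 (chromosome 17, 13006846 to 13040063) was the exception in direction. It had 112.5, 116 and 110.2 CPM in the INT-777 libraries of days 1, 2 and 3, against 100.1, 101.4 and 97.6 CPM in the DMSO libraries. The groups do not overlap, the log2 fold change was 0.18 ± 0.05 (SE, n = 3 per group) or 1.13-fold higher, and the within-day ratios were close to each other at 1.12, 1.14 and 1.13.

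**Figure D2:**
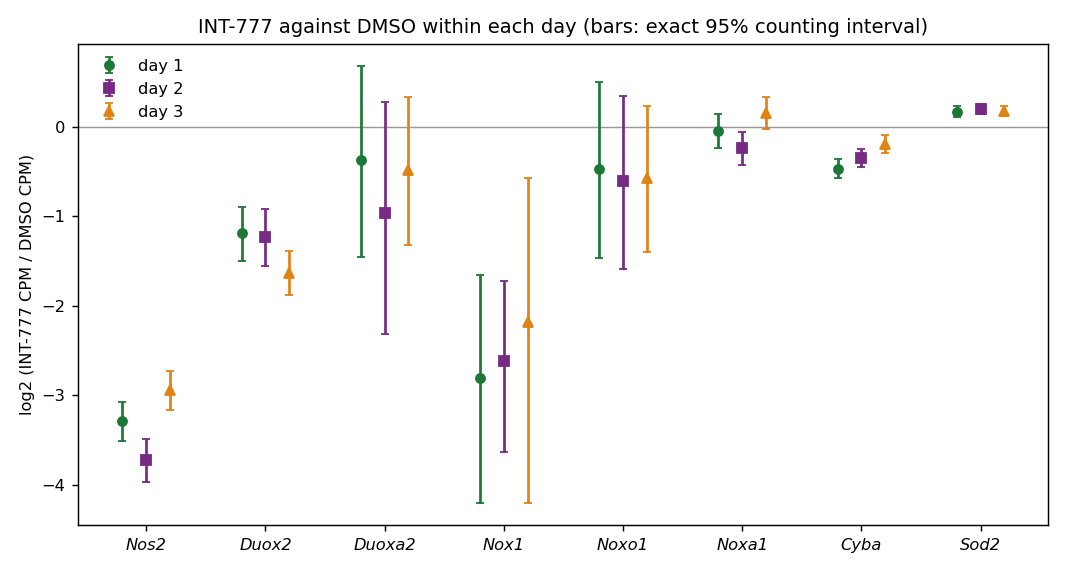
Log2 ratio of the INT-777 to the DMSO level for each gene on each day, with exact 95% counting intervals as bars. Nos2, Duox2, Nox1 and Cyba lie below 0 on all 3 days with intervals that exclude 0, Sod2 lies above 0 on all 3, and the intervals of Duoxa2 and Noxo1 include 0 on every day. The interval of Noxa1 excludes 0 on day 2 alone, where it lies below 0.

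Across the 8 genes, 7 had a negative and 1 a positive log2 fold change, with a median of −0.55, against a median of 0.00 over all 15998 tested genes. The fit without a day term called 1 of the 8 (Nos2, lower), beside 1.45% of all genes tested, 0.763% lower and 0.688% higher (edgeR quasi-likelihood test, Benjamini-Hochberg adjusted p under 0.05). With the day as a block it called 5, Nos2, Duox2, Nox1 and Cyba lower and Sod2 higher, beside 21.3% of all genes, 10.3% lower and 11.1% higher, with blocked log2 fold changes of −3.31 ± 0.12, −1.37 ± 0.12, −2.58 ± 0.33, −0.34 ± 0.06 and 0.18 ± 0.04 (SE). Groups that do not overlap were seen for 6 of the 8, 5 lower and 1 higher, beside 24.5% of all genes, 11.0% lower and 13.6% higher. As the 8 were chosen with this contrast known, these calls and those of the other fits below are a description and no test of the 8 genes. DESeq2, also without a day term, called 4 (Nos2, Duox2, Nox1 and Cyba, all lower), beside 5.64% of all genes, and edgeR with no low-count filter called Nos2 and Cyba, beside 1.50%. The edgeR call of Nos2 was lost without both day 1 libraries, at a log2 fold change of −3.33 in the 4 libraries left, where DESeq2 called Nos2 and Duox2, beside 1.22% of all genes. In edgeR, Cyba was also called without INT-777 replicate 3 (beside 1.26%), Duox2 and Nox1 without DMSO replicate 3 (beside 1.68%), and all of Duox2, Nox1, Cyba and Sod2 without both day 3 libraries (beside 26.8%).

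Per kilobase of exon that no other gene shares, the order of the levels differed between the treatments in the place of Nos2. In INT-777 libraries Cyba was highest at 28.4 ± 2.12 CPM per kb (SD, n = 3), followed by Sod2 at 11.3 ± 0.291, Noxa1 at 6.68 ± 0.804, Nos2 at 0.861 ± 0.110, Duox2 at 0.458 ± 0.0956, Noxo1 at 0.452 ± 0.0866, Duoxa2 at 0.366 ± 0.167 and Nox1 at 0.0557 ± 0.0289. In DMSO libraries Cyba had 35.8 ± 0.866 CPM per kb, Sod2 9.96 ± 0.195, Nos2 8.59 ± 1.22, Noxa1 6.87 ± 0.380, Duox2 1.21 ± 0.474, Noxo1 0.664 ± 0.140, Duoxa2 0.539 ± 0.191 and Nox1 0.341 ± 0.199. Nos2 thus stood just under Sod2 with DMSO and below Noxa1 with INT-777. The neighbours whose library ranges overlap were Duox2, Noxo1 and Duoxa2 with INT-777, and Noxo1, Duoxa2 and Nox1 with DMSO. Exon length is that of all annotated transcripts together, which understates the level of a gene with long transcripts used rarely.

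**Figure D3:**
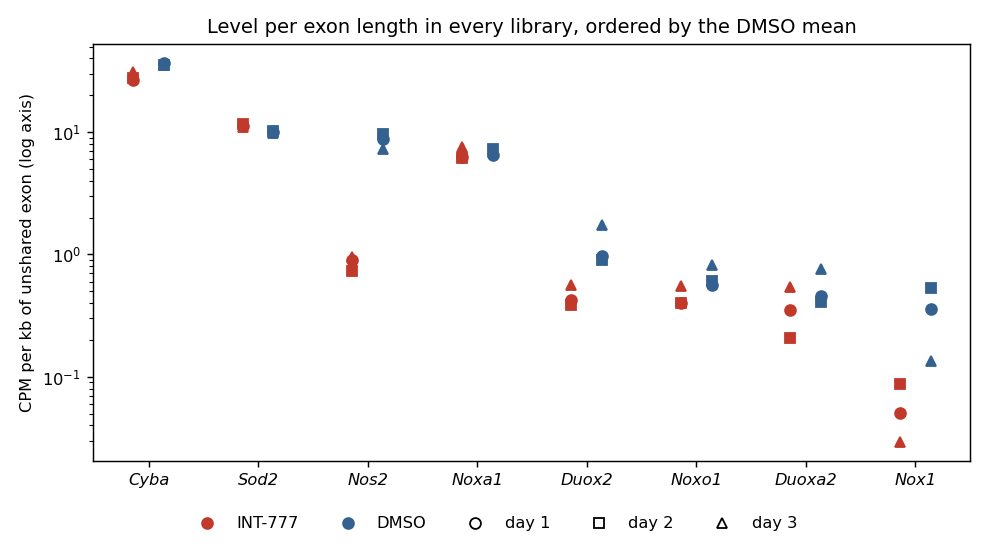
Level per kilobase of unshared exon in every library on a log axis, with INT-777 left of DMSO for each gene, and genes ordered by the DMSO mean. Cyba is highest in both groups, and Nos2 has 0.737 to 0.951 CPM per kb with INT-777 against 7.30 to 9.74 with DMSO.

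The day of the sort, a measure not used to choose the genes, was tested with treatment in the model. Of the 8 genes, 2 differed between days, Duox2 (edgeR F-test adjusted p = 0.000831) and Nox1 (edgeR F-test adjusted p = 0.00806), beside 20.5% of all genes tested. The count of 2 of 8 is near that share of all genes. Duox2 and Nox1 differed in opposite directions. The day 3 level of Duox2 was 1.40 times the mean of days 1 and 2 with INT-777 and 1.88 times with DMSO, and that of Nox1 was 0.428 times with INT-777 and 0.301 times with DMSO. The goblet and enteroendocrine marker sums given above were higher on day 3 and the Paneth sum was lower. Their part in these day differences was not tested. Nos2 did not pass (edgeR F-test adjusted p = 0.615), nor did Sod2 (0.668), Cyba (0.803), Noxa1 (0.506), Noxo1 (0.547) or Duoxa2 (0.140).

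Of 68 other genes of these pathways, 57 were abundant enough to be tested. The fit without a day term called 3 of them, Ddah1 and Fos higher and Jun lower, which is 5.26% beside 1.45% of all genes; with the day block there were 9 higher genes and 10 lower ones, 33.3% beside 21.3% of all genes. The median log2 fold change of the 57 was 0.02. The lists were chosen with earlier results of these data known. These shares, and the p-values of list genes below, are therefore a description. No gene was called without INT-777 replicate 1 or 2, without DMSO replicate 1 or 2, or without both libraries of day 1 or of day 2 (edgeR; 8 to 15 genes had an unadjusted p under 0.05 in these fits; DESeq2, run on the fit without day 1 alone, called 3), and 21 were called without both day 3 libraries. DESeq2 on all libraries called 9.

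None of the other NADPH oxidase family genes analysed was called. Of 12 genes 6 were tested, and edgeR called 0 with or without the block (1 had an unadjusted p under 0.05 in each, and DESeq2 called 0), and the median log2 fold change was −0.05. The lowest p was that of Rap1a, a small GTPase, at 0.12 ± 0.05 (SE, log2 fold change), followed by Pdia4, a protein disulfide isomerase of the endoplasmic reticulum, at −0.05 ± 0.075. Rac1, the GTPase that activates Nox enzymes in epithelium, had 407 CPM with INT-777 and 400.5 CPM with DMSO on average. Cybb, the catalytic subunit of the phagocyte oxidase, had 1, 0 and 0 read pairs on days 1, 2 and 3 with INT-777 and 1, 0 and 13 with DMSO. Duox1, the paralog of Duox2 at the far end of the same locus, had 6, 3 and 5 read pairs with INT-777 and 4, 10 and 9 with DMSO, too few to be tested, against 438 and 1134 summed read pairs of Duox2 with INT-777 and DMSO.

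Among genes of nitric oxide and arginine metabolism, Ddah1 rose, and read pairs of the other nitric oxide synthases were few. Of 24 genes 19 were tested, and 1 was higher and none lower, beside 1.45% of all genes called. The median log2 fold change was 0.08, and DESeq2 called 3, Ddah1, Gch1 and Pts, beside 5.64% of all genes. Ddah1, which breaks down methylated arginines that inhibit nitric oxide synthases, had 80.3, 77.8 and 69.7 CPM in the INT-777 libraries of days 1, 2 and 3, against 47.9, 48.7 and 34.5 CPM in the DMSO libraries. Its groups do not overlap, and the log2 fold change was 0.80 ± 0.14 (SE; edgeR adjusted p = 0.0482). Under RLE scaling and under library size alone it missed the threshold (edgeR adjusted p = 0.055 and 0.0532). Nos3 had 2, 6 and 10 read pairs with INT-777 and 4, 8 and 1 with DMSO, and Nos1 3, 1 and 1 with INT-777 and 0, 0 and 1 with DMSO, against 537 and 5247 summed read pairs of Nos2 with INT-777 and DMSO.

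With the day block 3 genes of this list were higher (Ddah1, Gch1 and Odc1) and 4 lower (Arg2, Pts, Ddah2 and Prkg2). These are out of 19 tested, beside 21.3% of all genes called in that fit. The enzymes that make the cofactor tetrahydrobiopterin went separate ways: Gch1, the first enzyme, had a blocked log2 fold change of 0.46 ± 0.06 (SE; edgeR adjusted p = 3.77e-05), Pts, the second, −0.37 ± 0.07 (edgeR adjusted p = 0.000992), and Spr, the last, did not pass (edgeR adjusted p = 0.889). Of the arginine supply genes, the transporters Slc7a1 and Slc7a2 and the synthesis enzymes Ass1 and Asl were not called in either fit. Arg2, a mitochondrial arginase that competes for arginine, was lower (−0.51 ± 0.13, edgeR adjusted p = 0.0099), and so was Ddah2 (−0.66 ± 0.12, edgeR adjusted p = 0.001). Without the block edgeR called Ddah1 alone of this list. Gch1, Pts, Arg2 and Ddah2 did not pass there (edgeR adjusted p = 0.129, 0.0808, 0.123 and 0.248). The genes of this paragraph other than Ddah1 were picked after their values were seen, so their p-values are a description.

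Of the enzymes that remove superoxide and peroxide, none of 23 tested was called by edgeR without the block, beside 1.45% of all genes. In that fit 3 had an unadjusted p under 0.05, and DESeq2 called 1, Prdx6, beside 5.64% of all genes. The median log2 fold change was 0.03. With the block Prdx3, Prdx6 and Srxn1 were higher and Cat, the peroxisomal catalase, and Glrx lower. These 3 higher and 2 lower of 23 are near the share of all genes called with the block, 21.3%. Prdx3, the mitochondrial peroxiredoxin that removes the peroxide made by Sod2, had a log2 fold change of 0.19 ± 0.05 (SE; edgeR adjusted p = 0.136 without the block and 0.00436 with it), and Prdx6 of 0.17 ± 0.05 (0.17 and 0.00765). Sod1, the cytosolic superoxide dismutase, had 253 CPM with INT-777 and 243 CPM with DMSO on average and passed in neither fit.

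Of 9 transcription factors known to act on Nos2, 1 rose and 1 fell in edgeR without the block, beside 1.45% of all genes. Both are of the AP-1 family. DESeq2 called 5, Fos, Jun, Cebpb, Rela and Nfkb1, beside 5.64% of all genes. Fos had 19.1, 19.4 and 19.9 CPM in the INT-777 libraries of days 1, 2 and 3 against 12.7, 12.2 and 11.2 CPM in the DMSO libraries (edgeR adjusted p = 0.00919), and Jun 36.9, 38.1 and 40.6 CPM against 54.5, 58.3 and 66.4 CPM (edgeR adjusted p = 0.0169). Jun shares exon sequence with the antisense gene Junos. The list median was −0.03. With the block Cebpb, Hif1a and Fos were higher and Rela, Nfkb1, Irf1 and Jun lower, beside 21.3% of all genes called in that fit. The NF-kB subunits Rela and Nfkb1 had log2 fold changes of −0.22 ± 0.05 and −0.18 ± 0.04 (SE), and Irf1, an interferon response factor, of −0.35 ± 0.14.

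**Figure D4:**
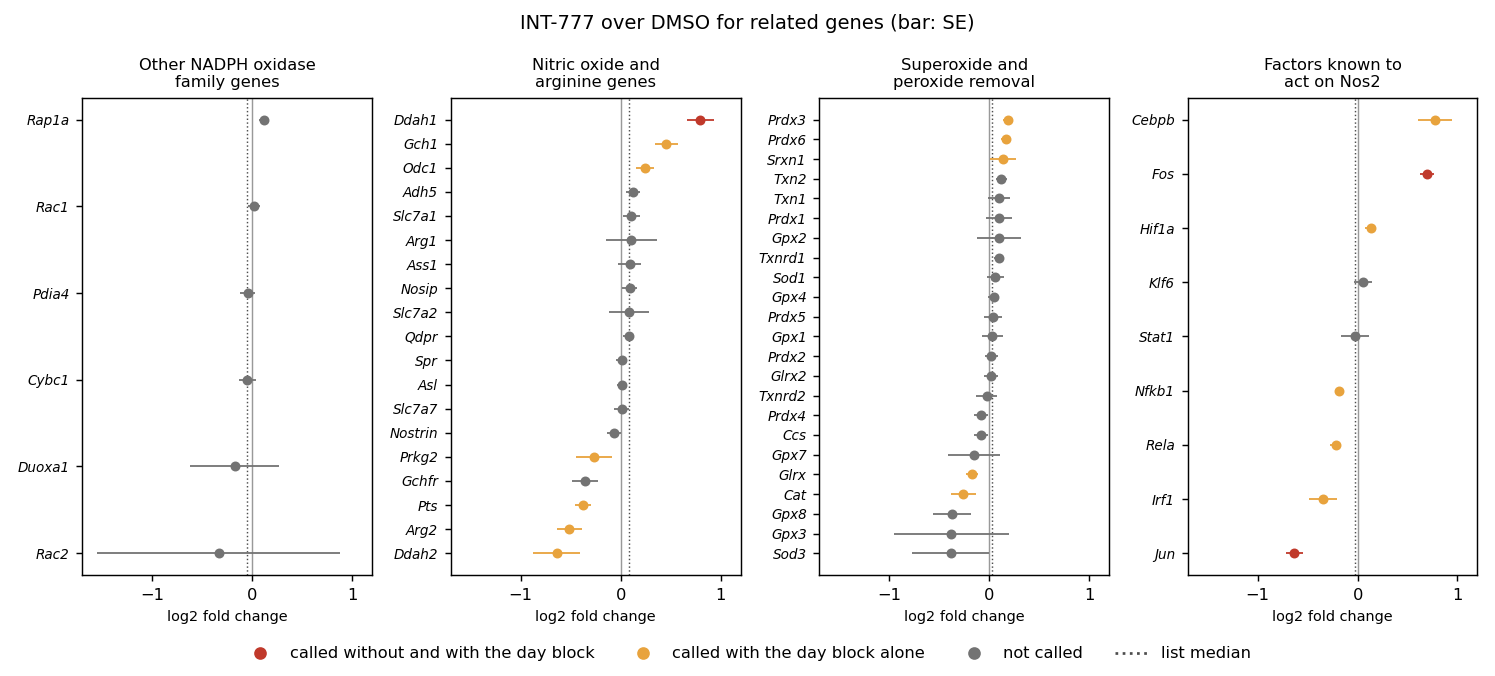
Log2 fold change, INT-777 over DMSO, with its SE for the 57 tested genes of 4 related lists; the color gives the edgeR call without and with the day block and the dotted line the list median. The list medians lie between −0.05 and 0.08, and Ddah1, Fos and Jun are the 3 genes called in both fits.

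The genes most like Nos2 over the 6 libraries, by Pearson correlation of log2 CPM among 11011 named genes whose log2 CPM averaged 1 or more, were Nedd9 (0.999), Clic5 (0.998), Fam83b (0.998), Cxadr (0.998) and Pmvk (0.996). The libraries form separate groups by treatment, so these values mostly reflect the separation of INT-777 from DMSO. All 5 were lower in every INT-777 library than in any DMSO library, with log2 fold changes between −0.66 (Clic5) and −0.19 (Nedd9), against −3.32 for Nos2. None of the 5 passed the test of days (edgeR F-test adjusted p between 0.822 and 0.999). Choice by likeness to Nos2 over these same libraries favours both this result and the separation of the groups. Neither is therefore a finding apart from that choice. Cxadr overlaps the opposite-strand gene Btg3 over 695 exon bases, and Nedd9 overlaps Gm32401 over 62.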

How the data were processed

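The deposited files hold counts of read pairs per gene for each library as STAR writes them, without normalization by the authors; per the submitters' processing notes FastQC, STAR 2.73a and edgeR 3.24.3 were used with the builds GRCm38 and mm10. The column that ignores strand was used. Read pairs that fall on exons of more than 1 gene are left out of such counts (4.35 to 4.54% of pairs). Of 54838 IDs, 54809 matched GENCODE M21, which gave symbols, positions and exon lengths. In R 4.3.3 with edgeR 4.0.16, genes were filtered with filterByExpr (minimum count 10), scaled by TMM and tested with the robust quasi-likelihood test, two-sided, with treatment alone in the model; SE is the absolute log2 fold change over the square root of F. Days were tested in a model of treatment and day.

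Libraries with the same number were made on 1 day, per the labels, and so are paired by label. Departures from the group means correlated at 0.329, 0.369 and 0.632 between same-day libraries of days 1, 2 and 3, but also at 0.336 and 0.363 between libraries of days 1 and 2, and at −0.487 to −0.435 between day 3 and the others, so the values set day 3 apart and do not pair days 1 and 2. The fit with the day as a block, other scaling, DESeq2 1.42.0, other filters and leaving out libraries were the alternatives. The fits were also run on simulated counts with known changes. Far fewer genes differed between days there than the 3273 called in these data. The simulation therefore cannot tell how the fits with and without the block compare here. The 8 genes and the gene lists were chosen with earlier results of these data known. One gene of the lists is not reported here. Named are the 8 genes, the called genes of each list or else its 2 of smallest p, and the 5 most like Nos2; other genes were chosen after their values were seen. P-values of the fit without a day term measure the spread between 3 preparations, each pooled from 4 mice. Those of the blocked fit and of the day test measure only the scatter left after day and treatment are fitted. Each day had a single pool of mice, so no p-value measures the spread between pools of the same day. Figures were drawn with matplotlib 3.10.9.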

Additional observations from a re-analysis of the deposited data

How the results depend on the processing

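The direction of Nos2, Duox2, Duoxa2, Nox1, Noxo1, Cyba and Sod2 held under every alternative in which they were tested (15 or 16 each); Nos2 ran from −3.51 to −3.13 on the log2 scale, Duox2 from −1.59 to −1.04, Nox1 from −3.06 to −2.13, Cyba from −0.42 to −0.27 and Sod2 from 0.15 to 0.19. Duoxa2, Nox1 and Noxo1 gave no value at 1 CPM in 3 libraries. Noxa1 turned positive without INT-777 replicate 1 (0.003), INT-777 replicate 2 (0.01) and both day 2 libraries (0.044), in a range from −0.152 (without both day 3 libraries) to 0.044. Genes called between INT-777 and DMSO numbered 232; the replicate block gave 3415, DESeq2 798 and no low-count filter 435, and leaving out libraries gave 0 to 4292. The count of 0 was without both day 1 libraries (edgeR; 1189 genes had an unadjusted p under 0.05, and DESeq2, added after seeing the data, called 164, Nos2 and Duox2 among them). Related genes called numbered 3, and 19 with the replicate block, 9 with DESeq2, 5 with no low-count filter and 0 to 21 on leaving out libraries. Among the 8 genes the block changed the call of Duox2, Nox1, Cyba and Sod2 and of no other. The cause was not tested. The count of genes called between days stayed within 1.5 times of 3273. Depth limits Duoxa2, Nox1 and Noxo1, with 4 to 71 read pairs per library.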
